A study of Homo sapiens with 22 samples.

Results

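Rutin, a plant flavonol glycoside in which quercetin carries a disaccharide, was tested in LUHMES cells that overexpressed alpha-synuclein and received 6-hydroxydopamine (6-OHDA). The comparison was set by the sample titles. It took the 3 libraries from cells given 6-OHDA and rutin and the 4 libraries from cells given 6-OHDA and no compound, 7 of the 22 libraries of the series. All 7 come from the alpha-synuclein overexpressed genotype, the control libraries included, so the values say nothing of rutin in wild-type cells or in cells without 6-OHDA. The cells were differentiated, per the design text, and all 7 library names carry lane 2. Also used as reference points were 3 libraries from cells given 6-OHDA and quercetin and 4 from untreated alpha-synuclein cells. The design text asks whether rutin protects the neurons, and ties rutin to a gene name read here as AKR1C3 and quercetin to CEBPB. The sources used here do not give doses, times, the solvent, the promoter behind the transgene or whether the line is a single clone.

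LUHMES is a conditionally immortalised human mesencephalic line that stops dividing and forms neurons with dopaminergic features when its oncogene is switched off. The dopamine analogue 6-OHDA enters such cells, oxidises and releases reactive oxygen species, which set off the antioxidant factor NRF2, the integrated stress response through ATF4, the unfolded protein response and p53. Alpha-synuclein is the presynaptic protein that accumulates in Lewy bodies. Rutin is studied as an antioxidant, and its sugar has to be cut off before quercetin is released. AKR1C3 is an aldo-keto reductase that reduces ketosteroids and prostaglandins.

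The files held estimated read counts per gene, and levels are given as CPM, counts scaled to a common library size with a correction for library composition. The control libraries held 5.41, 2.52, 3.93 and 18.6 M counts (M, mega), and the rutin libraries 7.48, 8.54 and 2.59 M, so that 3 counts corresponded to between 0.17 and 1.08 CPM. Control replicate 4 stood apart from the other control libraries. On the leading principal component of all 22 libraries it scored -1.47, where the other 3 control libraries scored 38.1 to 40.8 and the rutin libraries 38.4 to 45.3. Its summed level of the ER, axon guidance and neuronal lists below was the highest of the 4 controls, so values that move with it are given with and without it. The mitochondrial share of counts overlapped between the groups, at 0.818% to 1.09% in controls and 0.735% to 1.26% with rutin. Of the neuronal markers, TUBB3, MAP2, DCX, STMN2, SYT1, TH and NR4A2 were all tested, and their summed level was 2666 to 4151 CPM in controls and 2437 to 2768 CPM with rutin. These are bulk samples, so fewer cells of a type and less RNA per cell cannot be told apart.

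No gene passed the test between rutin and 6-OHDA alone. In edgeR's quasi-likelihood test, with p-values adjusted after Benjamini and Hochberg, 0 of 16601 tested genes (0%) had an adjusted p under 0.05. The smallest adjusted p with all 22 libraries fitted was 0.0526, shared by 3 genes (KIAA1522, LENG8 and REEP2), all lower with rutin. The next was 0.0876 for RPS27L, which was higher. When only the 7 compared libraries were fitted, the smallest edgeR adjusted p was 0.576, or 0.333 with a replicate block added. From lane 2 alone it was 0.392, and in each of these fits it belonged to a gene other than those 3. In the full fit, 1790 genes (10.8%) had an unadjusted p under 0.05, of which 661 were higher (3.98%) and 1129 lower (6.8%) with rutin. DESeq2 on the same libraries called 289 genes at an adjusted p under 0.05. Of the 6126 genes that DESeq2 gave an adjusted p, 27 were called higher (0.441%) and 262 lower (4.28%), and all 289 had an unadjusted p under 0.05 in edgeR. Without control replicate 4, edgeR again called 0 genes and DESeq2 called 118, 45 of them higher (3.03%) and 73 lower (4.91%) among 1486 genes with an adjusted p. Of the 289 genes, 85 (29.4%) were also among those 118, where they made up 72%. The unadjusted counts became even without that library, at 717 genes higher (4.36%) and 674 lower (4.1%).

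The spread set how small a difference could be seen. The median change over all tested genes was -0.01 on the log2 scale, with quartiles at -0.18 and 0.18. The median standard error (SE) was 0.10 for genes above 100 CPM and 0.40 for genes at 1 to 5 CPM. The labels do not say that the libraries of a group are separate cultures, so p-values here reflect only how these samples vary, and that variation may be technical. Taken gene by gene, 3 libraries against 4 cannot give an exact permutation p below 0.0571.

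The 3 genes nearest to the threshold in the fit of all 22 libraries were lower with rutin than in every control library. KIAA1522, a gene of poorly described function on chromosome 1 (32741885 to 32774970), stood at 125, 147, 147 and 179 CPM with 6-OHDA alone and at 99.97, 95.9 and 89.9 CPM with rutin. The groups did not overlap, and the log2 difference was -0.65 ± 0.11 (SE), with an edgeR adjusted p of 0.0526 and a DESeq2 adjusted p of 9.23e-06. KIAA1522 was also lower with 6-OHDA alone than in untreated alpha-synuclein cells, where it ran from 216 to 260 CPM, while the quercetin libraries stood at 136, 131 and 131 CPM.

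LENG8, whose product belongs to an RNA-processing family (chromosome 19, 54448887 to 54462037), measured 174, 168, 150.4 and 214 CPM in controls and 106, 99.2 and 64.7 CPM with rutin. It differed by -0.96 ± 0.16 (log2, SE), or -0.84 without control replicate 4. REEP2, which shapes tubular endoplasmic reticulum in neurons (chromosome 5, 138439017 to 138446969), measured 69.8, 89.7, 67.0 and 72.8 CPM in controls and 45.8, 54.7 and 38.5 CPM with rutin. Its difference of -0.66 ± 0.12 (log2, SE) stayed at -0.67 without control replicate 4. All 3 rutin libraries lay below all 4 controls for both genes. For LENG8 and REEP2 the quercetin libraries were also below the controls, at 110, 127 and 113.9 CPM for LENG8 and 52.3, 58.4 and 51.99 CPM for REEP2.

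The next genes by p among those lower with rutin were again not called by edgeR. GAL3ST4, a Golgi sulphotransferase for galactose residues, stood at 24.1, 26.2, 24.2 and 35.1 CPM in controls and 17.8, 17.3 and 15.8 CPM with rutin, a difference of -0.71 ± 0.14 (log2, SE). FLRT1, an adhesion molecule of the unc-5 ligand family, differed by -0.59 (log2), and SLC22A23, an orphan member of the organic ion transporter family, by -0.53. RAB15, a small GTPase of endosome recycling, differed by -0.48 and KCNA2, a delayed rectifier potassium channel, by -0.59. In these 5 genes no rutin library reached the lowest control. SLC22A23 and KCNA2 were highest in control replicate 4, and their differences shrank to -0.37 and -0.46 without it.

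A pair of lower genes rested on very few counts. MIA-RAB4B, an annotated read-through of MIA and RAB4B on chromosome 19 (40771648 to 40796943), had 6, 3, 5 and 34 estimated counts in controls and 0 in all 3 rutin libraries. Pooled over libraries it stood at 1.56 CPM in controls, and 3 counts over the rutin libraries would be 0.147 CPM. With all controls it was thus at least 10.6-fold lower. Most of the control counts came from control replicate 4, and the bound was not computed without that library. MIA-RAB4B shares sequence with both parent genes, so how estimated counts were divided between them is uncertain. OR2L13, an olfactory receptor gene, had 3, 3, 3 and 22 counts in controls and 1, 1 and 0 with rutin. Intervals and floors of this kind cover counting error only.

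RPS27L headed the genes that were higher with rutin. RPS27L encodes a ribosomal protein S27 relative that p53 activates (chromosome 15, 63125872 to 63158021). It stood at 65.5, 67.5, 66.3 and 63.9 CPM with 6-OHDA alone and at 98.4, 87.3 and 121 CPM with rutin. The 4 controls lay within a few CPM of each other and every rutin library was above them, with a log2 difference of 0.63 ± 0.12 (SE) and an edgeR adjusted p of 0.0876. Untreated alpha-synuclein cells held 17.3 to 24.4 CPM of RPS27L, so the rutin libraries lay further from the untreated level than the controls did.

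PROSER1, a proline- and serine-rich protein gene, stood at 17.6, 21.2, 19.0 and 16.5 CPM in controls and 28.2, 27.2 and 29.4 CPM with rutin, a log2 difference of 0.62. TUBA1C, an alpha-tubulin, stood at 79.1, 63.5, 91.9 and 71.2 CPM in controls and 106, 121 and 94.1 CPM with rutin, a difference of 0.49. SOD1, the cytosolic superoxide dismutase, stood at 221, 206, 237 and 196 CPM in controls and 281, 266 and 280 CPM with rutin. SOD1 differed by 0.36 ± 0.09 (log2, SE), with an edgeR adjusted p of 0.162 and no overlap between groups. CCDC85B, a coiled-coil repressor protein, differed by 0.48, GLIPR2, a Golgi-associated protein, by 0.79, and CKS1B, a partner of cyclin-dependent kinases, by 0.89. In each of these genes the rutin libraries lay above all controls. RAET1G, a ligand of the NKG2D receptor, was also higher, but it rested on 3, 1, 2 and 2 counts in controls and 12, 16 and 4 with rutin.

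**Figure D1:**
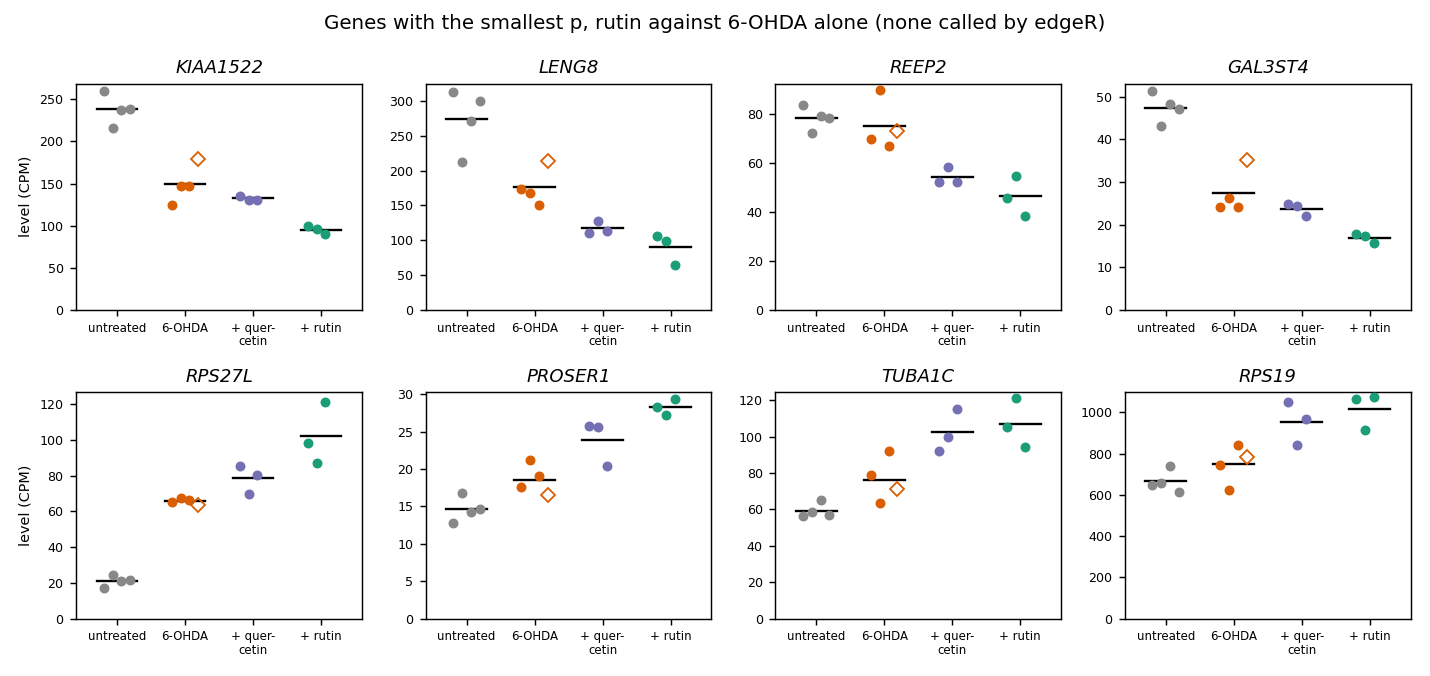
Level in CPM (linear axes from 0) of 8 genes with small p-values in each alpha-synuclein library, by group: untreated, 6-OHDA alone, 6-OHDA with quercetin and 6-OHDA with rutin. Points are libraries, bars are group means, and the open diamond is control replicate 4; in each panel the rutin points lie wholly below (upper row) or above (lower row) the 6-OHDA points, as for RPS27L at 87.3 to 121 CPM against 63.9 to 67.5 CPM.

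AKR1C3, the gene tied to rutin, rested on few counts in the 7 libraries, so the data give no firm value for it. It had 5, 3, 8 and 21 counts with 6-OHDA alone and 17, 20 and 3 with rutin, which is 0.83, 1.08, 1.88 and 1.19 CPM against 2.08, 2.14 and 1.05 CPM. The groups overlapped, since rutin replicate 3 lay below 3 of the 4 controls. The log2 difference was 0.61 ± 0.46 (SE) with a 95% interval from -0.35 to 1.57 and an edgeR adjusted p of 0.691. Untreated alpha-synuclein cells held 0.69 to 1.31 CPM of AKR1C3 and the quercetin libraries 0.70, 1.70 and 2.81 CPM. Of the 12 aldo-keto reductase genes listed, 9 were tested and 0 had an unadjusted p under 0.05, with a median log2 difference of -0.07. Over all tested genes 10.8% had such a p. Close relatives such as AKR1C1 and AKR1C2 share sequence with AKR1C3, so their estimated counts are uncertain.

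CEBPB, the stress-activated transcription factor tied to quercetin, did not differ beyond its spread. It stood at 50.5, 58.5, 54.5 and 45.01 CPM in controls and 42.7, 49.8 and 55.99 CPM with rutin, against 3.03 to 4.14 CPM in untreated cells. The log2 difference was -0.07 ± 0.14 (SE), with a 95% interval from -0.37 to 0.22. Of 5 tested members of the C/EBP family, 0 had an unadjusted p under 0.05, against 10.8% of all tested genes. DDIT3, which encodes CHOP, was among the 5.

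TH, which makes the dopamine precursor L-DOPA, stood at 83.9, 71.8, 46.8 and 66.6 CPM in controls and 63.3, 49.3 and 75.2 CPM with rutin. Untreated alpha-synuclein cells held 321 to 419 CPM of TH, so neither group was near that level, and the difference between them was -0.13 ± 0.16 (log2, SE; 95% interval -0.47 to 0.21).

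The wider dopaminergic genes and the Parkinson disease genes were read beside the 10.8% of all tested genes with an unadjusted p under 0.05. Of 22 listed genes of dopamine synthesis, storage, transport and midbrain identity, 16 were tested and 1 had such a p (6.25%). That was DRD2, the dopamine autoreceptor, which stood at 91.4, 91.9, 85.5 and 110.4 CPM in controls and 70.5, 60.7 and 79.8 CPM with rutin. All 3 rutin libraries of DRD2 lay below the controls, a difference of -0.45 ± 0.13 (log2, SE; edgeR adjusted p = 0.192). Of 13 tested genes of familial Parkinson disease, 0 had an unadjusted p under 0.05, with a median of -0.10 that became 0.01 without control replicate 4.

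HMOX1, the haem-degrading enzyme and NRF2 target, stood at 62.2, 50.97, 53.8 and 14.3 CPM in controls and 75.4, 47.3 and 75.9 CPM with rutin. Control replicate 4 was far below the rest, and rutin replicate 2 lay below the other 3 controls. The log2 difference of 0.58 ± 0.32 (SE; edgeR adjusted p = 0.549) shrank to 0.23 without control replicate 4. Untreated cells held 0.21 to 1.14 CPM of HMOX1, so its level stayed high in both groups.

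**Figure D2:**
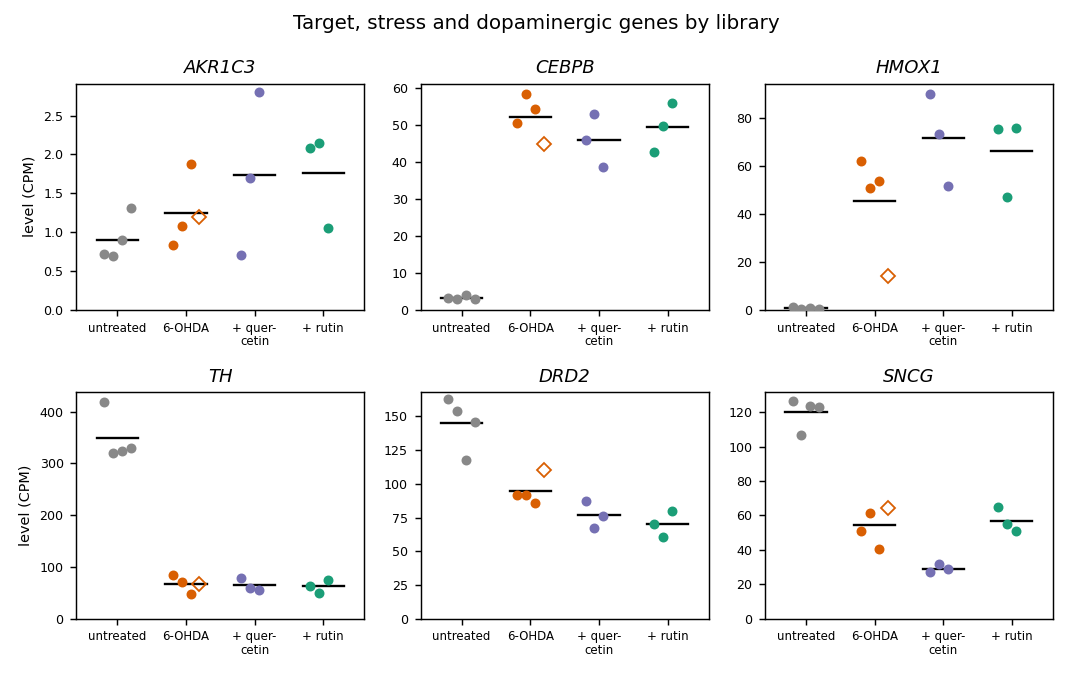
Level in CPM (linear axes from 0) of AKR1C3, CEBPB, HMOX1, TH, DRD2 and SNCG in each alpha-synuclein library by group, with points for libraries, bars for group means and an open diamond for control replicate 4. Rutin and 6-OHDA points overlap in all panels but that of DRD2, while SNCG in the quercetin libraries (27.1 to 31.5 CPM) lies below every rutin library (51.1 to 64.6 CPM).

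The gene groups were described by how many tested members had an unadjusted p under 0.05, how many did not overlap between groups, and the median log2 difference. Over all tested genes 680 were higher without overlap (4.1%) and 764 lower (4.6%), or 1368 (8.24%) and 1184 (7.13%) without control replicate 4. These counts are descriptions, since no list member was called by edgeR in the full comparison.

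Cytosolic ribosomal protein genes held the largest share of members with a small p among the 26 pathway lists. Of 26 listed and tested members, 24 lay above 0 and 15 had an unadjusted p under 0.05 (57.7%), all 15 higher with rutin, against 3.98% of all tested genes. The libraries of 9 members did not overlap, all higher, and the median log2 difference was 0.25, or 0.26 without control replicate 4. Their summed level was 10070, 9172, 11240 and 11450 CPM in controls and 12820, 12390 and 12930 CPM with rutin. Every rutin library was above every control, and the quercetin libraries, at 12390, 10560 and 11730 CPM, overlapped both groups. DESeq2 called 5 of 25 members with an adjusted p, all higher, against 0.441% of all 6126 such genes called higher. Without control replicate 4 it called 7 of 16, all higher, against 3.03% of 1486 genes.

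RPS19, a small-subunit protein mutated in Diamond-Blackfan anaemia, stood at 746, 621, 840 and 786 CPM in controls and 1064, 912 and 1074 CPM with rutin (log2 0.44 ± 0.10, SE; edgeR adjusted p = 0.162). RPS24, another small-subunit protein, stood at 329, 279, 329 and 357 CPM in controls and 437, 420 and 442 CPM with rutin (log2 0.42 ± 0.10, SE). RPLP0, the acidic stalk protein of the large subunit, stood at 451, 338, 471 and 460 CPM in controls and 601, 735 and 499 CPM with rutin (log2 0.51 ± 0.13, SE). No rutin library of these 3 genes fell to the highest control. RPL23, a large-subunit protein that also binds MDM2, overlapped, since rutin replicate 2 at 411 CPM lay just below control replicate 4 at 417 CPM.

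Messenger RNAs of ribosomal proteins usually begin with a run of pyrimidines, the terminal oligopyrimidine tract through which mTORC1 sets their translation. The starts of the 4 members with the smallest p that the RefSeq promoter table holds (GRCh38.p14) are shown because they let this shared feature be read directly, RPL18 being the next in order of p after RPL23, which is not in that table. Each line gives the 15 bases before and the 15 from the annotated start, 5′ to 3′ on the gene's strand. Capitals mark the longest run of C and T that covers the start or comes within 5 bases of it.
RPS19 (chr19:41860240-41860269, plus strand): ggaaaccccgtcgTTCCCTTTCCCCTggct
RPS24 (chr10:78033848-78033877, plus strand): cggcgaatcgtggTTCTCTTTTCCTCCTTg
RPLP0 (chr12:120201097-120201126, minus strand): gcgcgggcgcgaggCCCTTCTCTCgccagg
RPL18 (chr19:48619164-48619193, minus strand): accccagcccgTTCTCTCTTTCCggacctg
All 4 hold a run of 10 to 16 pyrimidines at or within a few bases of the start. Over the list, 17 of the 26 members matched the table by symbol. The 5 bases from the start were all C or T in 11 of them (64.7%), against 608 of 11281 promoters of tested genes (5.39%), and a run of at least 8 lay within 5 bases of the start in 13 (76.5%) against 1316 (11.7%). Only the gene's strand was searched. A match describes these letters and says nothing of mTORC1 in these cells.

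Ribosomal protein mRNAs are short and abundant, and length and level moved with the comparison as a whole. The longest annotated transcripts of the list had a median of 1854.5 bases against 3386 over all tested genes, and a median level of 389 against 15 CPM. Median log2 differences fell along transcript length from 0.10 for genes under 1 kb and 0.07 for 1 to 2 kb to -0.04 for 4 to 8 kb and -0.09 above 8 kb. Without control replicate 4 the medians were 0.02, 0.06, -0.01 and -0.04 in the same bins. Genes lower with rutin at an unadjusted p under 0.05 made up 2.21% of those under 1 kb and 15% of those above 8 kb. Among the 149 tested genes above 100 CPM and under 2 kb, 25.5% were higher and 2.01% lower by that measure. By base composition, genes lower with rutin made up 1.99% of those with transcripts under 40% GC and 10.3% of those above 55% GC. With length and GC as an offset in the fit, the ribosomal protein median was 0.18 and 9 of 26 members had an unadjusted p under 0.05. In that fit 1667 of 16573 tested genes had such a p, 612 of them higher with rutin. The offset used the longest annotated transcript of each gene, which need not be the one expressed. The part of length and composition in the other lists was not tested.

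**Figure D3:**
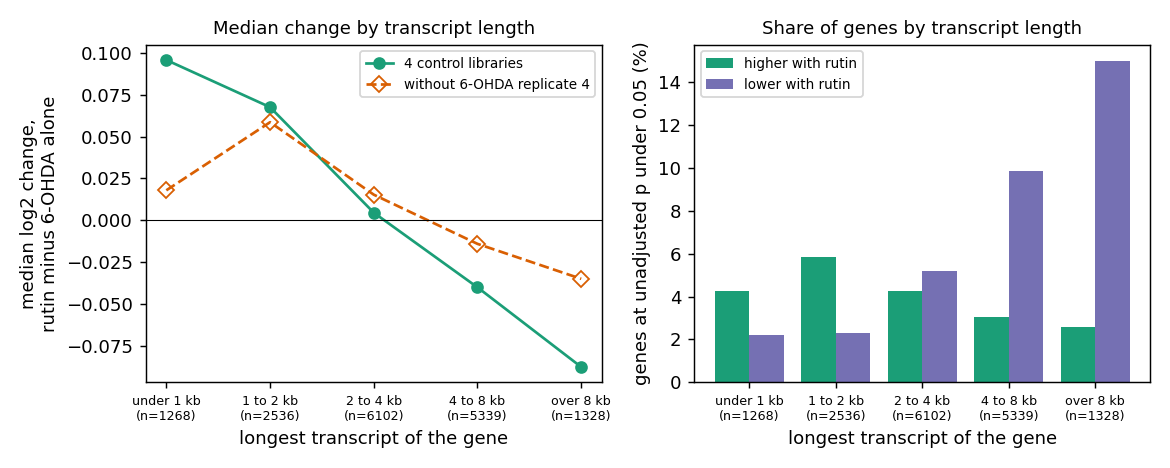
Left, median log2 difference between rutin and 6-OHDA alone over genes binned by the length of their longest transcript, with all 4 controls and without control replicate 4; right, percent of genes in each bin with an unadjusted p under 0.05, higher or lower with rutin. The share that was lower rises from 2.21% under 1 kb to 15% above 8 kb, and the medians pass from 0.10 to -0.09.

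Targets of p53, the tumour suppressor that halts growth or starts apoptosis after damage, tended the same way as RPS27L. Of 21 tested targets 18 lay above 0, with a median log2 difference of 0.28. An unadjusted p under 0.05 was found for 9 targets (42.9%), all higher, against 3.98% of all tested genes. GDF15, a secreted stress cytokine, stood at 30.6, 33.02, 42.1 and 22.2 CPM in controls and 46.0, 48.3 and 49.3 CPM with rutin (log2 0.60 ± 0.20, SE; edgeR adjusted p = 0.251). PMAIP1, which encodes the pro-apoptotic protein NOXA, stood at 55.8, 58.5, 60.9 and 28.7 CPM in controls and 72.2, 68.1 and 73.8 CPM with rutin (log2 0.51, or 0.29 without control replicate 4). MDM2, the ligase that degrades p53, differed by 0.30, and SESN1, a sestrin that restrains mTORC1, by 0.28. Libraries did not overlap for 6 targets, these 4 among them.

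Control replicate 4 was the lowest of the controls in the summed level of p53 targets. That sum was 1371, 1370, 1435 and 1122 CPM in controls and 1514, 1491 and 1642 CPM with rutin. Without that library the p53 median was 0.17, and 4 of 21 targets had an unadjusted p under 0.05, against 4.36% of all tested genes higher. In untreated cells the sum was 719 to 818 CPM. The rutin libraries thus lay above the controls in a group of genes that already stood higher after 6-OHDA, where its median log2 difference from untreated cells was 0.98. The quercetin libraries, at 1476, 1541 and 1464 CPM, also lay above every control. Between the compounds directly the p53 median was 0.06 higher with rutin, against 0.03 over all tested genes.

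Proteasome subunits, which form the protease that clears ubiquitin-tagged proteins, were higher with rutin in 6 of 25 genes at an unadjusted p under 0.05, and lower in 0. Over all tested genes 3.98% were higher by that measure. The proteasome median was 0.17, and 0.15 without control replicate 4. PSMA2, an alpha-ring subunit, stood at 31.2, 30.9, 31.7 and 33.95 CPM in controls and 37.6, 39.7 and 51.1 CPM with rutin. PSMA6, another alpha-ring subunit, differed by 0.26 and PSMC1, an ATPase of the cap, by 0.28. PSMB5, which carries the chymotrypsin-like site, differed by 0.26. None of these genes overlapped between groups. The list's sum overlapped, however, at 2546, 2236, 2630 and 2375 CPM in controls and 2743, 2805 and 2611 CPM with rutin.

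Genes of the endoplasmic reticulum were described by their chaperones and the unfolded protein response. Of 20 tested members, 17 lay below 0 and the median was -0.28, which became -0.06 without control replicate 4. At an unadjusted p under 0.05, 4 were lower and 1 higher, and 3 and 1 without that library. Over all tested genes above 100 CPM, 18.6% were lower by that measure, and the median level of this list was 161 CPM. The summed level was 4604, 5001, 5399 and 8201 CPM in controls and 4678, 5389 and 4213 CPM with rutin, and control replicate 4 stood far above all other 6-OHDA libraries. SYVN1, the ER ligase that marks misfolded proteins, stood at 278, 332, 342 and 414 CPM in controls and 252, 266 and 218 CPM with rutin, a difference of -0.47 ± 0.10 (log2, SE; edgeR adjusted p = 0.157), or -0.36 without control replicate 4. Untreated cells held 142 to 163 CPM of SYVN1.

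HERPUD1, a partner of SYVN1 in ER-associated degradation, differed by -0.36, and by -0.19 without control replicate 4. HYOU1, an ER chaperone, differed by -0.47 and by -0.31. ERN1, the stress sensor IRE1, went the other way at 26.1, 19.0, 28.2 and 10.2 CPM in controls and 32.1, 31.0 and 29.7 CPM with rutin. Its lowest value was again control replicate 4, although the rutin libraries lay above all 4.

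Targets of ATF4, which supply amino acids and tRNA synthetases under stress, held 4 of 25 tested genes lower and 0 higher at an unadjusted p under 0.05, and 1 lower without control replicate 4. The median of -0.15 became -0.04 without it. Over all tested genes 6.8% were lower, or 4.1% without control replicate 4. TRIB3, a pseudokinase that restrains ATF4, stood at 18.8, 27.6, 23.3 and 22.5 CPM in controls and 17.8, 15.8 and 12.3 CPM with rutin. Its difference of -0.55 ± 0.21 (log2, SE) stayed at -0.56 without control replicate 4. WARS, the tryptophanyl-tRNA synthetase, differed by -0.50, but by -0.17 without that library, where it stood at 284 CPM against 119 to 160 CPM in the other controls. SLC7A11, the cystine importer shared with NRF2, differed by -0.47 and by -0.23.

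NRF2 targets were mixed, with 2 of 18 tested genes higher and 2 lower at an unadjusted p under 0.05 and a median of 0.12. Both directions together made up 22.2% of the list, against 10.8% of all tested genes. PGD, of the pentose phosphate pathway, stood at 34.4, 35.2, 36.7 and 27.2 CPM in controls and 46.1, 41.6 and 41.3 CPM with rutin (log2 0.38 ± 0.12, SE). PRDX1, a peroxiredoxin, differed by 0.45, and by 0.27 without control replicate 4, the lowest control at 55.1 CPM. Without that library 1 of the 18 targets was higher and 0 lower, and the median was 0.09. The median of this list after 6-OHDA alone was 1.71 above untreated cells, so the rutin differences were small beside it.

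**Figure D4:**
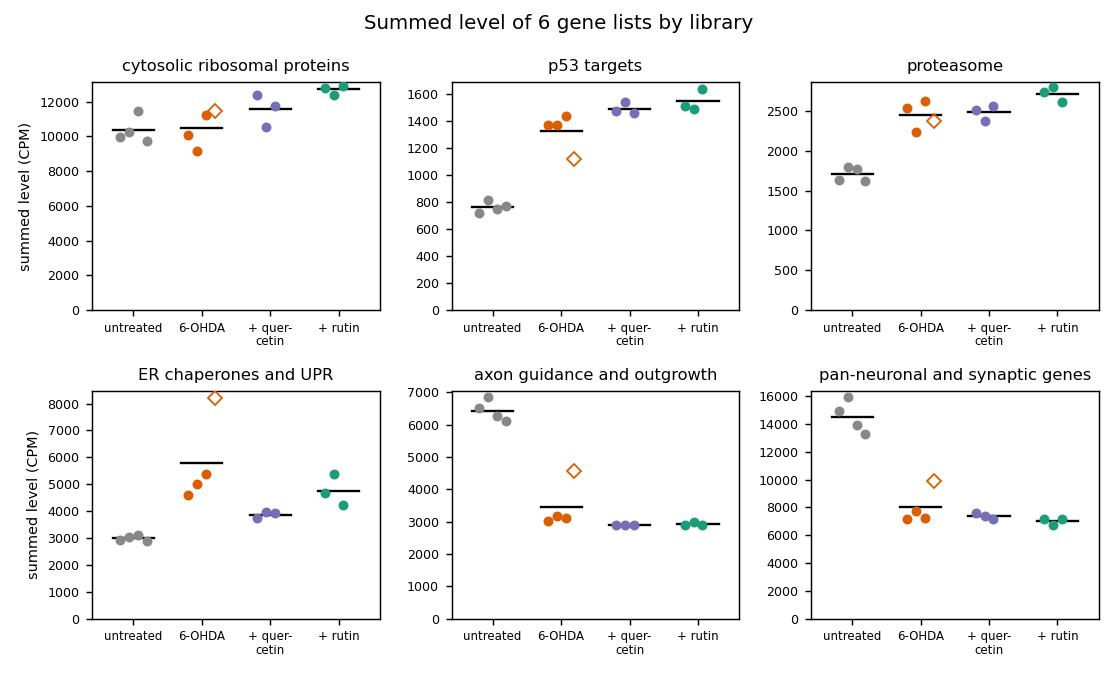
Summed level in CPM (linear axes from 0) of 6 gene lists in each alpha-synuclein library by group, with points for libraries, bars for group means and an open diamond for control replicate 4. The ribosomal protein sum of the rutin libraries (12390 to 12930 CPM) lies above all controls (9172 to 11450 CPM), while in the ER, axon guidance and neuronal lists control replicate 4 lies above every other 6-OHDA library.

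Heat shock proteins, the cytosolic chaperones, lay above 0 in 13 of 14 tested genes with a median of 0.27, which became 0.10 without control replicate 4. Over all tested genes 3.98% were higher at an unadjusted p under 0.05, or 4.36% without that library. Of the heat shock list 2 were higher and 0 lower by that measure, or 1 and 0 without that library. With all controls HSF2, a heat shock factor, was among the 2, at 80.8, 75.4, 77.1 and 78.7 CPM in controls and 95.9, 87.3 and 97.6 CPM with rutin. Immediate-early genes, which respond within minutes to signals, held 2 of 17 higher with a median of 0.23, or 1 higher with a median of 0.02 without control replicate 4. IER2 stood at 55.8, 38.8, 37.8 and 45.3 CPM in controls and 73.3, 71.0 and 67.2 CPM with rutin, a difference of 0.66 ± 0.17 (log2, SE) that was 0.66 without control replicate 4 as well. Untreated cells held 53.8 to 87.0 CPM of IER2. The rutin libraries lay within that range, as did control replicate 1 at 55.8 CPM. The IER2 mean was 70.2 CPM with quercetin and 70.5 CPM with rutin, so its level was not particular to rutin.

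Neuronal genes were lower in several members. Of 23 tested pan-neuronal and synaptic genes 9 were lower and 1 higher at an unadjusted p under 0.05, with a median of -0.18. Over all tested genes 6.8% were lower, but the list had a median level of 137 CPM, and of all tested genes above 100 CPM and of 2 kb or more 19.8% were lower. MAPT, which encodes the microtubule protein tau, stood at 21.8, 28.4, 24.4 and 40.5 CPM in controls and 19.8, 16.9 and 18.2 CPM with rutin. The groups did not overlap, and the difference was -0.69 ± 0.17 (log2, SE; edgeR adjusted p = 0.171), or -0.42 without control replicate 4. SYN1, a synaptic vesicle phosphoprotein, differed by -0.51. NCAM1, a neural adhesion molecule, stood at 798, 951, 707 and 1497 CPM in controls and 673, 600 and 731 CPM with rutin, with rutin replicate 3 inside the control range.

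Without control replicate 4, 5 of the 23 pan-neuronal genes were lower at an unadjusted p under 0.05 and the median was -0.11, against 4.1% of all tested genes lower. The sum over the list was 7165, 7730, 7250 and 9886 CPM in controls and 7174, 6724 and 7155 CPM with rutin. Untreated alpha-synuclein cells held 13280 to 15910 CPM, so the neuronal sum of the rutin libraries lay no nearer to the untreated level than that of the controls.

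Axon guidance genes, the receptors and ligands that steer growing axons, held 8 of 24 tested members lower and 0 higher at an unadjusted p under 0.05. The median of -0.24 became -0.12, with 3 members lower, once control replicate 4 was left out. Over all tested genes 6.8% were lower, or 4.1% without that library. The longest transcripts of this list had a median of 7171 bases, and of all tested genes of 4 to 8 kb 9.85% were lower with all controls. The part of length in this list was not tested. EPHA5, an ephrin receptor, stood at 51.7, 52.8, 47.5 and 92.9 CPM in controls and 39.1, 37.8 and 45.1 CPM with rutin. ROBO2, a Slit receptor, stood at 643, 694, 602 and 1172 CPM in controls and 572, 564 and 584 CPM with rutin. In both genes the groups did not overlap, but without control replicate 4 the log2 difference went from -0.64 to -0.33 for EPHA5 and from -0.44 to -0.17 for ROBO2. UNC5B, a netrin receptor that 6-OHDA alone held at 88.9 to 200 CPM against 8.57 to 10.1 CPM in untreated cells, stood at 63.2, 92.5 and 82.9 CPM with rutin (log2 -0.70, or -0.37 without control replicate 4).

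**Figure D5:**
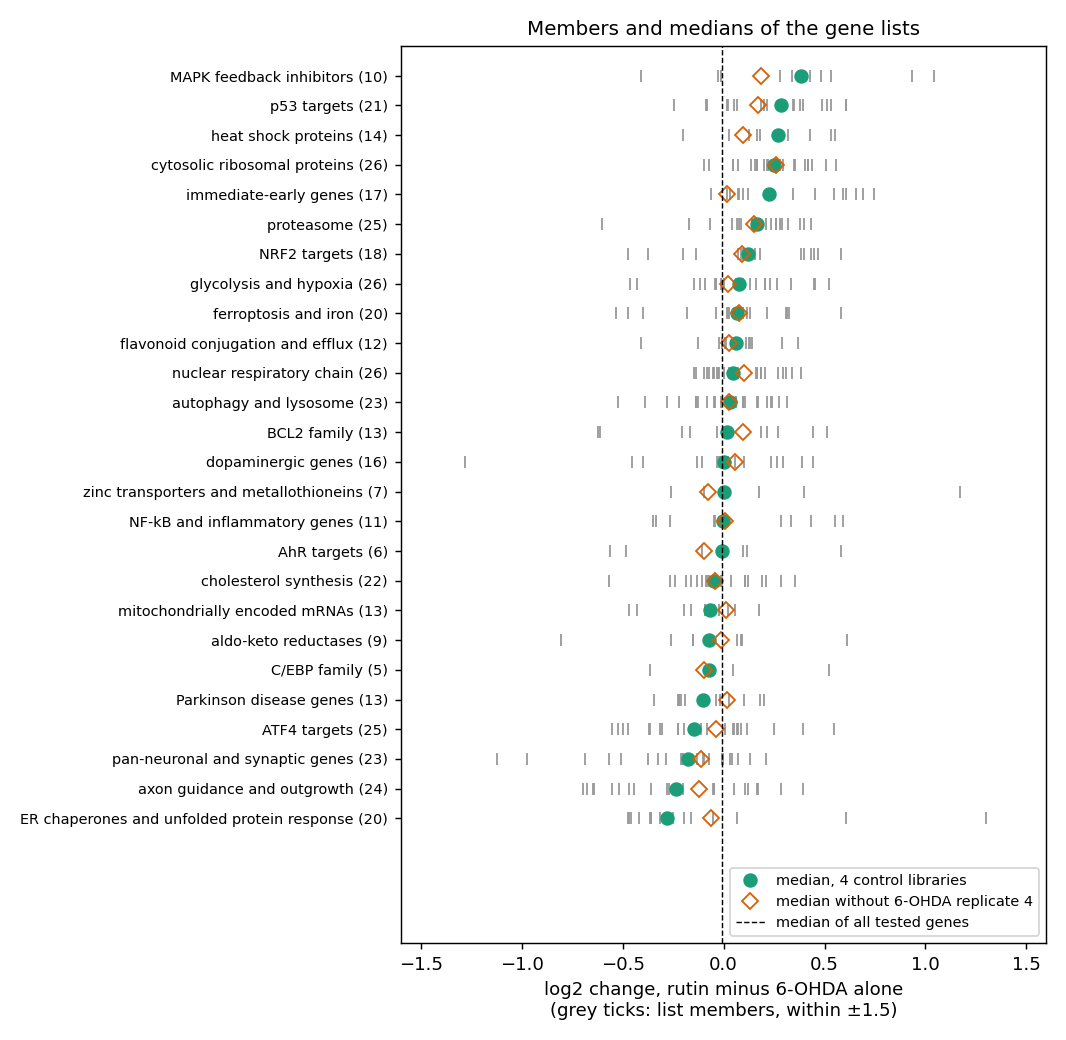
Log2 difference between rutin and 6-OHDA alone for the tested members of 26 gene lists (grey ticks), with the list's median over all 4 controls (filled circles) and without control replicate 4 (open diamonds), and the median of all tested genes as a dashed line. The number of tested members follows each name; the ribosomal protein medians coincide at 0.25 and 0.26, while the ER median passes from -0.28 to -0.06.

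Among apoptosis regulators of the BCL2 family, 2 of 13 tested genes were higher and 1 lower at an unadjusted p under 0.05, or 1 and 2 without control replicate 4. With all controls 23.1% of the list had such a p, against 10.8% of all tested genes. The gene lower with all controls was HRK, a pro-apoptotic protein of neurons, at 46.2, 56.7, 51.5 and 84.9 CPM in controls and 39.96, 40.6 and 38.5 CPM with rutin. HRK and PMAIP1 thus lay on opposite sides, since PMAIP1 was higher with rutin. Both had an extreme value in control replicate 4, and HRK differed by -0.61 with it and by -0.36 without it.

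Pathways often linked to flavonoids were small lists, read beside the 10.8% of all tested genes with an unadjusted p under 0.05. Of 6 tested genes of the aryl hydrocarbon receptor, a sensor of planar ring compounds, 2 had such a p (33.3%), 1 higher and 1 lower, or 0 and 1 without control replicate 4. TIPARP was higher at 16.1, 15.8, 16.5 and 11.9 CPM in controls and 23.1, 21.0 and 22.7 CPM with rutin. ARNT, the receptor's partner, was lower at 20.4, 29.1, 27.7 and 21.0 CPM in controls and 17.2, 17.8 and 16.4 CPM with rutin. Of 12 tested genes that conjugate or export flavonoids, 0 had an unadjusted p under 0.05. NF-kB genes held 2 of 11 higher (18.2%), or 0 higher and 1 lower without that library. NFKBIE, an inhibitor of the factor, differed by 0.43 and RELB, a subunit, by 0.55. Glycolysis and hypoxia genes held 3 of 26 higher and 1 lower (15.4%), or 1 and 2 without it, with P4HA1, a collagen hydroxylase, at 0.45 and ENO2, the neuronal enolase, at -0.46.

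Energy genes and some smaller lists were read beside the 10.8% of all tested genes with an unadjusted p under 0.05. Without control replicate 4, 4.36% of all tested genes were higher and 4.1% lower by that measure. Of 13 mitochondrially encoded mRNAs 0 had an unadjusted p under 0.05, with a median of -0.07, and their sum was 7548 to 10230 CPM in controls and 6727 to 11450 CPM with rutin. Nuclear genes of the respiratory chain held 2 of 26 higher and 0 lower with a median of 0.05, and 5 higher and 0 lower with a median of 0.10 without control replicate 4. Autophagy and lysosome genes held 1 of 23 higher and 1 lower, the latter OPTN, a receptor for mitophagy, at -0.52 and at -0.29 without control replicate 4. Ferroptosis and iron genes held 0 of 20 higher and 2 lower, and 0 and 0 without that library. Cholesterol synthesis genes held 1 of 22 higher and 1 lower, and 2 and 0 without it. Feedback inhibitors of MAPK signalling held 1 of 10 higher, and 0 without it. Zinc transporters and metallothioneins held 1 of 7 higher. With all controls the shares were 7.69% for the respiratory chain, 8.7% for autophagy and lysosome, and 10% for ferroptosis and iron. They were 9.09% for cholesterol synthesis, 10% for MAPK feedback inhibitors and 14.3% for zinc transporters and metallothioneins.

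Markers of other cells were set beside these values. All 5 cycling markers lay above 0 with a median of 0.78, and 2 had an unadjusted p under 0.05, against 3.98% of all tested genes higher. Without control replicate 4 the median was 1.64 and 3 had an unadjusted p under 0.05, against 4.36% of all tested genes higher. TOP2A, the topoisomerase of dividing cells, had 0, 0, 3 and 4 counts in controls and 24, 18 and 5 with rutin, with an edgeR adjusted p of 0.185. CDK1, the mitotic kinase, stood at 1.83, 2.15, 4.23 and 8.06 CPM in controls and 7.33, 11.5 and 5.60 CPM with rutin (log2 0.86, or 1.64 without control replicate 4). The summed cycling markers were 13.1, 16.1, 31.5 and 50.6 CPM in controls and 39.8, 65.8 and 30.4 CPM with rutin, so the groups overlapped with and without control replicate 4, and untreated alpha-synuclein cells held 59.6 to 116.2 CPM. Summed markers overlapped between groups for astrocytes (11.9 to 23.3 against 14.7 to 26.1 CPM), the oligodendrocyte lineage (43.2 to 66.3 against 44.5 to 53.5 CPM) and mesenchymal cells (13.3 to 21.4 against 14.3 to 22.9 CPM). They also overlapped for microglia (5.85 to 11.8 against 8.89 to 11.2 CPM) and endothelium (66.8 to 89.2 against 67.9 to 113.7 CPM). The part of dividing cells in the higher ribosomal and CKS1B values was not tested.

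Against quercetin, the aglycone of rutin, 1 gene was called by edgeR's quasi-likelihood test. The 2 compounds differ by the disaccharide that rutin carries, and since the sources used here give no doses, matched doses cannot be assumed. The called gene, 1 of 16601 (0.00602%), was SNCG on chromosome 10 (86958618 to 86963260), which encodes gamma-synuclein, a relative of alpha-synuclein abundant in peripheral and dopaminergic neurons. SNCG stood at 64.6, 54.8 and 51.1 CPM with rutin and 27.1, 31.5 and 28.7 CPM with quercetin, a difference of 0.97 ± 0.14 (log2, SE; edgeR adjusted p = 0.0101). All 3 rutin libraries lay above all 3 quercetin libraries. With 6-OHDA alone SNCG stood at 50.9, 61.4, 40.6 and 64.3 CPM, so the rutin and control libraries overlapped (log2 0.07 ± 0.13, SE). The edgeR call was lost without quercetin replicate 1 (log2 0.93, adjusted p = 0.139), quercetin replicate 3 (0.96, adjusted p = 0.0661) or rutin replicate 1 (0.86, adjusted p = 0.162).

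For the other genes the difference between the compounds did not pass the edgeR test, and its intervals were wide for some. Between the compounds 1481 genes had an unadjusted p under 0.05 (8.92%), of which 821 were higher (4.95%) and 660 lower (3.98%) with rutin. KIAA1522 was lower with rutin than with quercetin by -0.47 (95% interval -0.70 to -0.24, edgeR adjusted p = 0.164), and every rutin library lay below every quercetin library. RPS27L was higher with rutin by 0.37 (0.12 to 0.63), and PSMA2 by 0.65 (0.37 to 0.92), also without overlap. RPS19 differed by 0.09 (-0.14 to 0.32), SYVN1 by 0.13 (-0.09 to 0.36) and REEP2 by -0.21 (-0.46 to 0.04). AKR1C3 differed by 0.05 with an interval from -0.88 to 0.97.

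Quercetin against 6-OHDA alone, which shares the 4 control libraries with the rutin comparison, gave 420 called genes (2.53%), so the side-by-side values are not independent. For the ER list the median was -0.58 with quercetin and -0.28 with rutin, and for SYVN1 the values were -0.61 and -0.47. For ribosomal proteins the medians were 0.16 and 0.25, and for proteasome subunits 0.00 and 0.17. Cytosolic ribosomal and proteasome medians between the compounds directly were 0.13 and 0.18 higher with rutin, against 0.03 over all tested genes.

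The effect of 6-OHDA itself, 6-OHDA alone against untreated alpha-synuclein cells, gave 7820 called genes (47.1%), but the untreated libraries ran on lane 1, so lane and treatment cannot be told apart there. It also shares the control libraries with the rutin comparison. By that measure KIAA1522 had a log2 difference of -0.67 after 6-OHDA and one of -0.65 with rutin, RPS27L 1.64 and 0.63, GDF15 4.46 and 0.60, MAPT -0.94 and -0.69, and SOD1 0.80 and 0.36. SYVN1 had 1.15 and -0.47, TRIB3 2.86 and -0.55, IER2 -0.71 and 0.66, and UNC5B 3.80 and -0.70. None of these rutin differences passed the edgeR test.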

How the data were processed

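RNA-seq libraries of polyA RNA were built with an MGIEasy kit from RNA isolated by an InnuPREP kit, per the labels' protocols. The deposited values are expected counts, that is, estimated counts per Ensembl gene in whole numbers, not normalised by the authors. The tools, per the submitters' processing notes, were Trimmomatic 0.38 and kallisto 0.46.2, with the builds given as GRCh38 and hg38. The sources used here do not give their order, how transcripts were summed to genes, the annotation release, filters or the use of strand. Near-identical and overlapping genes, ribosomal pseudogenes among them, are therefore uncertain.

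Each of the 22 columns was matched to its sample by library name, and 0 value columns were left unused. After rounding, edgeR 4.0.16 in R 4.3.3 was run on the counts (filterByExpr with a minimum count of 10, TMM, quasi-likelihood test on group means of all 22 libraries), with Benjamini-Hochberg adjustment over 16601 tested genes at 0.05. The table held 34679 genes. DESeq2 1.42.0 and limma 3.58.1 (voom with quality weights) were alternatives, beside other scalings, filters, library subsets, a replicate block, a 2-fold threshold and leaving out each library. A length and GC offset, and DESeq2 without control replicate 4, were added after seeing the data. The SE of a log2 difference was derived from its F statistic. Replicate libraries differed beyond sampling noise. Scripts were tested on simulated data.

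The members, gene lists (546 entries, 524 in the table, 474 tested, 4 by an older symbol) and tests were chosen with earlier results of these data known. Named genes are AKR1C3, CEBPB, TH and HMOX1, the 10 smallest p-values each way because no gene was called, up to 4 members of each list by p, and genes called against quercetin. RPL18 was added for its sequence and RAB4B only as a host gene. Results of some genes the rule names are not reported here. Positions are from GENCODE 29 on GRCh38.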

Additional observations from a re-analysis of the deposited data

Results flagged for a closer look

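Within the 4 control libraries, the spacing of values was examined for 69 genes and library measures, and chance marks about 1 group in 20. Control replicate 4 lay far from the other 3 controls in 7 of the 8 cases marked. Its values were 374.3 CPM for SLC22A23, 102.2 CPM for KCNA2, 92.92 CPM for EPHA5 and 1172 CPM for ROBO2, each the highest, and 28.67 CPM for PMAIP1 and 11.92 CPM for TIPARP, each the lowest. Its score of -1.466 on the leading principal component was also apart from 38.07 to 40.84 in the other controls. The remaining case was RPLP0 in control replicate 2, at 338.1 CPM against 451.3 to 471.1 CPM.

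The rutin and quercetin effects on SNCG differed, by 0.9698 on the log2 scale (edgeR adjusted p = 0.0101). SNCG was higher in all 3 rutin libraries than in all 3 quercetin libraries.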

How the results depend on the processing

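Genes called between rutin and 6-OHDA alone numbered 289 by DESeq2, 118 by DESeq2 without control replicate 4, 2 with RLE scaling, 4 without a count filter and 4 with a length and GC offset. They numbered 0 in edgeR as reported, with a 1 CPM filter, by voom, from the 7 libraries alone, from lane 2 alone and at 2-fold. Leaving out 1 library at a time gave 0 to 143 (143 without control replicate 1, 41 without control replicate 3, 3 without rutin replicate 2). The cause was not tested. Genes at an unadjusted p under 0.05 numbered 1134 when only these 7 libraries were fitted, and 1359 to 2326 with 1 library left out. Against quercetin the counts were 120 by DESeq2, 8 without a filter, 799 by voom, 19 from the libraries of the 2 groups alone, 0 from lane 2 alone and 0 to 1 with 1 library left out. For 6-OHDA against untreated cells they ran from 6123 to 8582.

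With a replicate block, 0 genes were called for rutin (1235 at an unadjusted p under 0.05), 1 against quercetin and 6123 for 6-OHDA. SNCG against quercetin then had an adjusted p of 0.14, and 0.154 from lane 2 alone. Deviations of same-numbered control and rutin libraries had correlations of -0.0144, -0.0325 and -0.00564, and those of differently numbered libraries ran from -0.102 to 0.0808. Whether the numbers mark a pairing cannot be decided from so few libraries.

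Of 65 genes, 62 kept their direction against 6-OHDA alone in every setting run. Most of them were named for a small p in this same comparison, and the settings reuse the same libraries. A kept direction was therefore likely from the start and is no separate support. With 1 library left out, CEBPB ran from -0.171 to 0.0191 (without rutin replicate 1), TH from -0.27 to 0.0287 (without rutin replicate 2) and SNCG from -0.0404 (without rutin replicate 1) to 0.182, with -0.04 without control replicate 3. The ribosomal protein median stayed between 0.18 and 0.27. Low counts limit AKR1C3 most among the named targets.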
